A study of Mus musculus with 4 samples.

Results

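The clock output factors described here are the regulators that carry the time signal of the circadian clock to other genes: the PAR bZIP activators Dbp, Tef and Hlf, their repressor Nfil3, the nuclear receptors Nr1d2 and Rora, the DEC repressors Bhlhe40 and Bhlhe41, and the clock-controlled protease Usp2. They were chosen by name, with earlier results of these data known. The 9 genes were looked up among the 25572 loci of the authors' deposited comparison of mouse liver RNA. Each was found at 1 locus that carries its name alone, and all 9 were among the 13320 loci the authors tested. The mice were C57BL/6J, 8 weeks of age; 2 were labelled wild type (WT), the controls for the knockout, and 2 Ern1-LKO, a liver-specific knockout of Ern1, which encodes the endoplasmic reticulum stress sensor IRE1α. The sources used here name neither the Cre driver of the knockout, nor the hour at which livers were taken, nor the feeding state.

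DBP, TEF and HLF are related leucine zipper proteins that bind a DNA element called the D-box and activate genes there, whereas NFIL3 (also called E4BP4) binds the same element and represses. In liver the PAR bZIP proteins accumulate toward the end of the light phase, NFIL3 is most abundant at the opposite time of day, and the PAR bZIP proteins are known for driving enzymes of drug and heme metabolism. A second pair of opposed factors acts at the ROR/REV-ERB element, where RORs activate and REV-ERBs repress genes such as Arntl, Clock, Cry1 and Nfil3 itself. Dbp, Tef, Hlf, Nr1d2, Bhlhe40, Bhlhe41 and Usp2 are in turn targets of CLOCK-BMAL1 at a further element, the E-box, where the DEC proteins compete with CLOCK-BMAL1.

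Stretches before the transcription starts are shown for the factors whose window holds one of these elements, for Usp2, the only one of the 9 genes that was called, and for Per3, a core clock gene with a pair of D-boxes. RefSeq promoters (build GRCm38.p6, 250 bases before to 50 after a start) matched 8 of the 9 genes. Bhlhe40 was not matched. Capitals mark the E-box CACGTG in Tef and Bhlhe41, the ROR/REV-ERB element TAGGTCA in Nfil3, read there on the other strand, and the D-box TTATGTAA in Per3; Usp2 has no capitals because its window held none of these letters. Each line is written 5′ to 3′ on the gene's strand, at chr15:81802513-81802601 (plus strand) for Tef, chr6:145865518-145865610 (minus) for Bhlhe41, chr13:52981040-52981159 (minus) for Nfil3, chr4:151044766-151044895 (minus) for Per3 and chr9:44084800-44084919 (plus) for Usp2.
Tef: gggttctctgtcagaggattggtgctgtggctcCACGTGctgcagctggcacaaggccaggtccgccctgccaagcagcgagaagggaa
Bhlhe41: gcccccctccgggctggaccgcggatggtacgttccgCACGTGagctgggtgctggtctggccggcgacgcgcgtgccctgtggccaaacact
Nfil3: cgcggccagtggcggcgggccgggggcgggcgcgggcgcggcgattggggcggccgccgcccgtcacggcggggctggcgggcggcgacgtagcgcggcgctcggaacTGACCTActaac
Per3: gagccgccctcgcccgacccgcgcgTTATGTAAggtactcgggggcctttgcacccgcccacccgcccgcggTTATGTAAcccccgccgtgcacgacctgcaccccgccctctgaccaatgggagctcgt
Usp2: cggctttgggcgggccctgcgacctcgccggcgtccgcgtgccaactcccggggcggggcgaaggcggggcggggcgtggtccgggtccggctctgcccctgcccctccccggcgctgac

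Counted from the RefSeq starts, the E-box begins 127 bases before the start in Tef and 153 before it in Bhlhe41. The ROR/REV-ERB element begins 12 bases before the start in Nfil3. By the GENCODE gene spans given below, however, the Tef stretch and the Nfil3 element lie inside their genes, and the Bhlhe41 stretch lies partly inside its gene. The 2 D-boxes of Per3 begin 205 and 158 bases before its start. Tef has a second RefSeq start, whose window also holds the E-box, and Nr1d2 holds the shorter receptor half-site AGGTCA, which is contained in the ROR/REV-ERB element. Searched on both strands, the E-box was found in 7.15% of all 32851 promoter windows, the ROR/REV-ERB element in 2.61%, the half-site in 16.3% and the D-box, as TTATGTAA or TTACGTAA, in 1.06%. None of the 8 matched genes held the D-box in its window.

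Expression is given as the authors' FPKM (sequenced fragments scaled by transcript length and library size), with 1 value per genotype and none per mouse, so whether the mice of a genotype overlap is not shown. Error is given as a standard error (SE), which the authors' test statistic implies for the log2 fold change of Ern1-LKO over WT, and a gene counts as called at an authors' q below 0.05. Of the 9 clock output factors 1 was called, Usp2, which rose, and none was called lower, against 2.74% of all tested loci called in either direction. At an unadjusted p under 0.05 there were 5, of which Tef, Usp2 and Bhlhe41 were higher and Nfil3 and Bhlhe40 lower in Ern1-LKO, against 10.3% of tested loci. The largest p that was still called was 0.00135, and among loci with an implied SE in the range of these genes other than Dbp (0.16 to 0.25) the smallest called change was 0.55 on the log2 scale.

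Usp2, a deubiquitinating enzyme that acts on clock proteins, rose from 4.22 FPKM in WT to 9.90 in Ern1-LKO. The ratio was 2.35. In the authors' deposited table its log2 fold change is 1.23 (implied SE 0.19) at p = 5e-05, the smallest p listed, and q = 0.00343. Many other called genes, among them Ciart, Alas1 and Plin2, share this p and q, so they do not rank Usp2 above those genes. In order of level per length among the 9 genes, Usp2 stood at the eighth place in WT and at the fifth in Ern1-LKO. Its gene lies at chr9:44067021-44095627 on mm10 (GENCODE M21, plus strand). Antisense models on the other strand cover 200 of its 4818 exonic bases, and the sources used here do not say whether strand was used in counting. The RefSeq start shown above lies inside this span, and a gene-level FPKM does not separate transcripts from different starts. A short stretch after that start was not found unbroken in a GENCODE transcript of Usp2, as it was for Tef, Bhlhe41, Nfil3 and Per3. The window shown may therefore not be the promoter used for the transcripts measured.

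**Figure D1:**
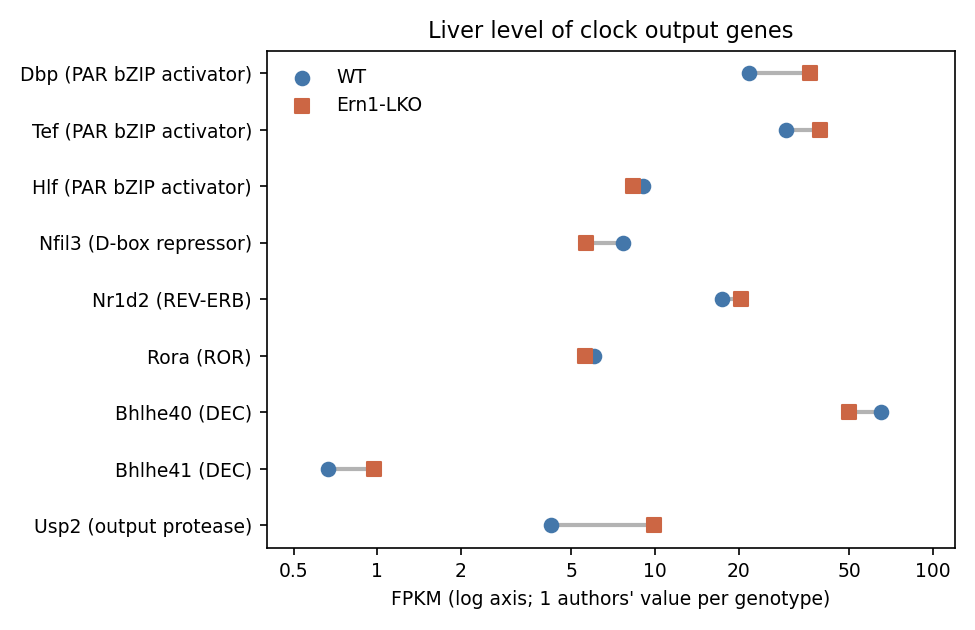
FPKM of each clock output factor in WT (circles) and Ern1-LKO (squares) on a log axis, 1 authors' value per genotype and no error bar because no value per mouse is given. Usp2 shows the widest gap, from 4.22 to 9.90, Bhlhe40 is the highest and Bhlhe41 the lowest in both genotypes.

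Of the D-box activators, Dbp and Tef stood higher in Ern1-LKO and Hlf close to its WT level, and none was called. Tef (chr15:81802421-81826863, plus strand) was at 29.6 FPKM in WT and 39.4 in Ern1-LKO. In the authors' deposited table its log2 fold change is 0.41 (implied SE 0.18, p = 0.0201, q = 0.297). The 95% interval from the implied SE runs from 0.06 to 0.76, so it lies above 0 before adjustment over all loci and the gene is not called after it.

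Dbp (chr7:45705088-45710203, plus strand), named for binding the albumin promoter D-box, was at 21.9 FPKM in WT and 36.1 in Ern1-LKO, a ratio of 1.65. Its log2 fold change of 0.72 was larger than that of Tef, but its implied SE was 0.53, against 0.18 for Tef. The authors' deposited table gives p = 0.209 and q = 0.863 for Dbp. The interval of -0.32 to 1.76 takes in no change as well as a larger difference than that of Usp2. That SE exceeded those of 98.8% of the 430 expressed loci with a WT FPKM of 20 to 25, whose median was 0.17. In the table Dbp shares 1 locus span with Rpl18, a ribosomal protein gene, and Sphk2, a sphingosine kinase gene on the opposite strand that covers 539 of the 2993 exonic bases of Dbp. Sphk2 was at 21.5 and 19.8 FPKM (implied SE 0.44, q = 0.999) and Rpl18 at 491 and 506. The sources used here do not say how reads of the overlap were divided, and the part of the overlap in the value of Dbp was not tested.

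Hlf (chr11:90336536-90390895, minus strand) was at 9.09 FPKM in WT and 8.36 in Ern1-LKO. Its log2 fold change was -0.12 (implied SE 0.17, p = 0.483, q = 0.999 in the authors' deposited table), with an interval of -0.45 to 0.21. Set against each other without a test, the difference of log2 fold changes was 0.53 (SE 0.24) between Tef and Hlf and 0.84 (SE 0.56) between Dbp and Hlf, with the SEs combined as if independent. Of the summed PAR bZIP level, Tef made up 48.9% in WT and 47.0% in Ern1-LKO, Dbp 36.1% and 43.0%, and Hlf 15.0% and 9.98%.

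The repressor of the same element stood on the other side. Nfil3 (chr13:52967209-52981073, minus strand) was at 7.65 FPKM in WT and 5.63 in Ern1-LKO, and the authors' deposited table lists its log2 fold change of -0.44 (implied SE 0.20) with p = 0.0277 and q = 0.347. It was not called, and its interval runs from -0.83 to -0.06.

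Set against each other as levels per length, the summed FPKM of the activators was 60.5 in WT and 83.8 in Ern1-LKO, which is 7.91 and 14.9 times the FPKM of Nfil3. The activator-to-repressor ratio was therefore 1.88 times as high in Ern1-LKO, a log2 difference of 0.91 with a combined SE of 0.31. The ratio of Tef to Nfil3 was 3.87 in WT and 6.99 in Ern1-LKO (log2 difference 0.85, SE 0.26). For Dbp it was 2.86 and 6.40 (1.16, SE 0.56), and for Hlf 1.19 and 1.48 (0.32, SE 0.26). Without Dbp, whose span is shared, the sum of Tef and Hlf was 5.05 and 8.47 times Nfil3, a log2 difference of 0.75 (SE 0.25). These ratios describe the pooled profiles and have no test across mice.

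The receptors of the ROR/REV-ERB element showed small differences. Nr1d2, which encodes REV-ERBβ (chr14:18204054-18239127, minus strand), was at 17.5 and 20.5 FPKM, a difference of 0.23 on the log2 scale (implied SE 0.16, p = 0.169, q = 0.803 in the authors' deposited table). Its paralog Nr1d1, encoding REV-ERBα, was at 35.3 and 45.8 FPKM, which the authors' deposited table puts at 0.38 on the log2 scale (implied SE 0.18, p = 0.0422, q = 0.441). Both REV-ERB genes therefore stood above WT without being called. Rora (chr9:68653786-69388246, plus strand), the activator at this element, was at 6.02 and 5.59 FPKM (log2 fold change -0.11, implied SE 0.19, q = 0.999). Its interval of -0.47 to 0.26 bounds the change on either side. Rorb, a related receptor gene listed at 0 in both genotypes, was not tested by the authors. The level of Nr1d2 was 2.90 times that of Rora in WT and 3.66 times in Ern1-LKO, a log2 difference of 0.34 (SE 0.25).

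The DEC genes encode repressors that compete at E-boxes, and their values lay on opposite sides of WT. Bhlhe40 (chr6:108660629-108666925, plus strand), the most abundant of the 9 genes in both genotypes, was at 65.0 FPKM in WT and 50.1 in Ern1-LKO. Its log2 fold change was -0.38 (implied SE 0.17, p = 0.0262, q = 0.339 in the authors' deposited table). Bhlhe41 (chr6:145858243-145865558, minus strand), the least abundant, was at 0.667 and 0.975 FPKM, and its log2 fold change in the authors' deposited table is 0.55 (implied SE 0.25, p = 0.0301, q = 0.366). Neither was called. The table's span for Bhlhe40, chr6:108577036-108666925, starts well before the annotated gene, and an antisense model covers 118 of its 4705 exonic bases. Bhlhe40 stood at 97.5 times the level of Bhlhe41 in WT and 51.4 times in Ern1-LKO, so the summed DEC level, 65.7 and 51.1 FPKM, followed Bhlhe40. A model on the opposite strand covers 1280 of the 6720 exonic bases of Bhlhe41, and on the log2(FPKM + 1) scale, which weighs low levels less, its change was 0.24.

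**Figure D2:**
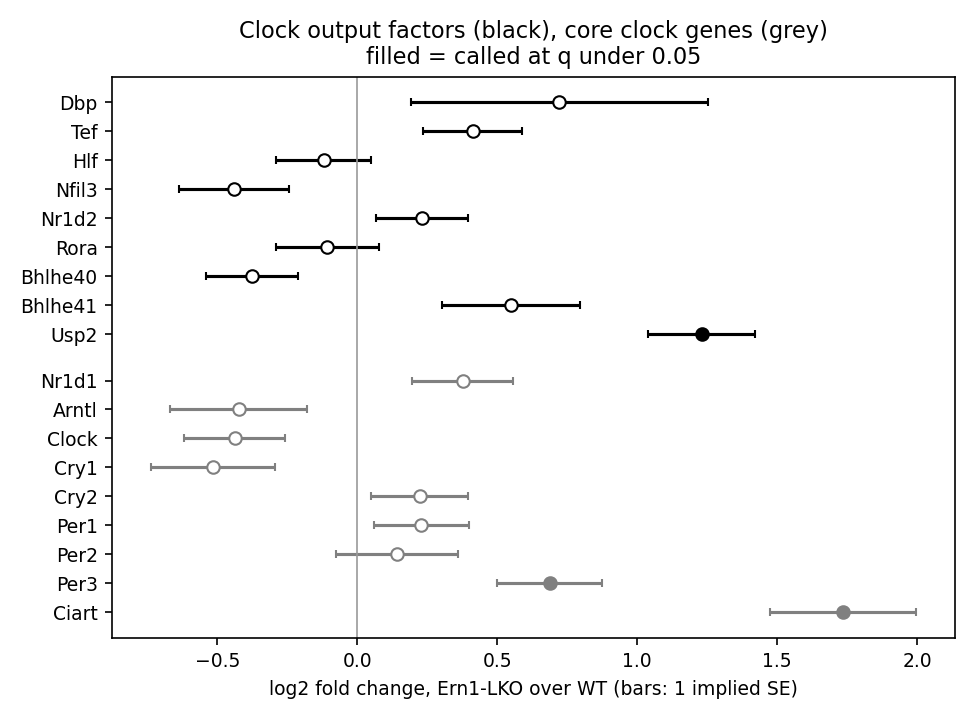
The log2 fold change of Ern1-LKO over WT, with bars of 1 implied SE, for the clock output factors (black) and core clock genes (grey). Filled points are called at q under 0.05. Usp2, Per3 and Ciart are filled and lie above 0. Nfil3, Bhlhe40, Hlf, Rora, Arntl, Clock and Cry1 lie below 0 as open points, and Dbp has the widest bar among the black points.

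The core clock loop, which drives these outputs, gave 2 calls, both higher, among 15 tested genes of 16 (1.58% of all tested loci were called higher). Timeless was tested only as a combined locus with Apon (212 and 167 FPKM, q = 0.437), so that value cannot be credited to Timeless. Ciart, a repressor of CLOCK-BMAL1, rose from 3.02 to 10.1 FPKM (log2 fold change 1.74, implied SE 0.26, q = 0.00343), and Per3 from 2.97 to 4.78 (0.69, implied SE 0.19, q = 0.0163), both in the authors' deposited table. Per1 was at 8.80 and 10.3 FPKM (q = 0.838) and Per2 at 5.20 and 5.74 (q = 0.999), so the period genes were not called together. The activator genes stood lower: Arntl, which encodes BMAL1, was at 1.73 and 1.29 FPKM (q = 0.632) and Clock at 5.04 and 3.72 (q = 0.312), neither called.

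Grouped by the element through which they are known to be regulated, the genes lay on different sides of WT. All gene lists used here were chosen with earlier results of these data known, so their counts beside all tested loci are not independent support. Some genes are shared between lists. Cry1 and Nr1d1 are on the E-box and ROR/REV-ERB element lists, and Per1, Per2 and Per3 are on the E-box and PAR bZIP target lists. Both core clock calls, Ciart and Per3, are also E-box calls, so the call of Per3 is counted on 3 lists. Per1 is also on the list of genes induced by glucocorticoids. Of 18 E-box targets of CLOCK-BMAL1, all tested, 15 stood above WT and 4 rose: Usp2, Ciart, Per3 and Nampt, the NAD salvage enzyme (10.9 to 16.4 FPKM, q = 0.0325). None was called lower, and 1.58% of all tested loci were called higher. Without the 7 clock output factors on this list, 10 of 11 stood above WT and 3 rose. For comparison, 47.9% of all tested loci stood above WT. The list's median change was 0.27 on the log2(FPKM + 1) scale, against -0.01 over all tested loci. Hlf, Bhlhe40 and Cry1, the cryptochrome at 3.01 and 2.10 FPKM (q = 0.310), were the 3 that stood below WT.

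Targets of the ROR/REV-ERB element lay mostly below WT. Of 12 tested genes of 13, 9 stood below WT, 2 fell, against 1.16% of all tested loci called lower, and none rose. Without Nfil3, the clock output factor on this list, 8 of 11 stood below WT, 2 fell and 7 were lower at an unadjusted p under 0.05. The 2 that fell are enzymes or coat proteins of lipid metabolism and not clock genes: Elovl3, a fatty acid elongase (164 to 105 FPKM, q = 0.00343), and Plin2, which coats lipid droplets (236 to 144 FPKM, q = 0.00343). The list's median change was -0.38 on the log2(FPKM + 1) scale. Nfil3, Arntl, Clock and Cry1 stood below WT, and Nr1d1 above it, among the 5 tested clock genes. At an unadjusted p under 0.05, 8 of the 12 were lower and 2 higher, against 4.53% and 5.74% of all tested loci, and Insig2, which restrains sterol synthesis, missed the threshold narrowly (88.4 and 60.4 FPKM, q = 0.0534).

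Genes reported to depend on PAR bZIP proteins in liver rose in part. Of 10 tested genes of 12, 5 rose and none was called lower, against 1.58% of all tested loci called higher. Of these 10 genes 9 stood above WT, against 47.9% of all tested loci, and the median change was 0.41 on the log2(FPKM + 1) scale. The 9 include Nr1i3, whose log2 fold change of 0.12 has an implied SE of 3.29, and Cyp2a4, at only 0.136 and 0.380 FPKM. Alas1, which starts heme synthesis, rose from 89.2 to 244 FPKM, and Por, the electron donor of cytochromes P450, from 76.2 to 133. Their log2 fold changes are 1.45 (implied SE 0.20) and 0.80 (0.17), both at q = 0.00343 in the authors' deposited table. Cyp7a1, which starts bile acid synthesis, rose from 11.1 to 21.1 FPKM and Cyp2a5, a coumarin hydroxylase whose paralog Cyp2a4 shares sequence with it, from 201 to 306 (q = 0.0258). Per3 was the fifth. Ppara, a nuclear receptor of fatty acid metabolism, was at 42.9 and 38.3 FPKM (q = 0.962). Alb had no estimate in either genotype, and Cyp2b10 was too low to be tested.

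**Figure D3:**
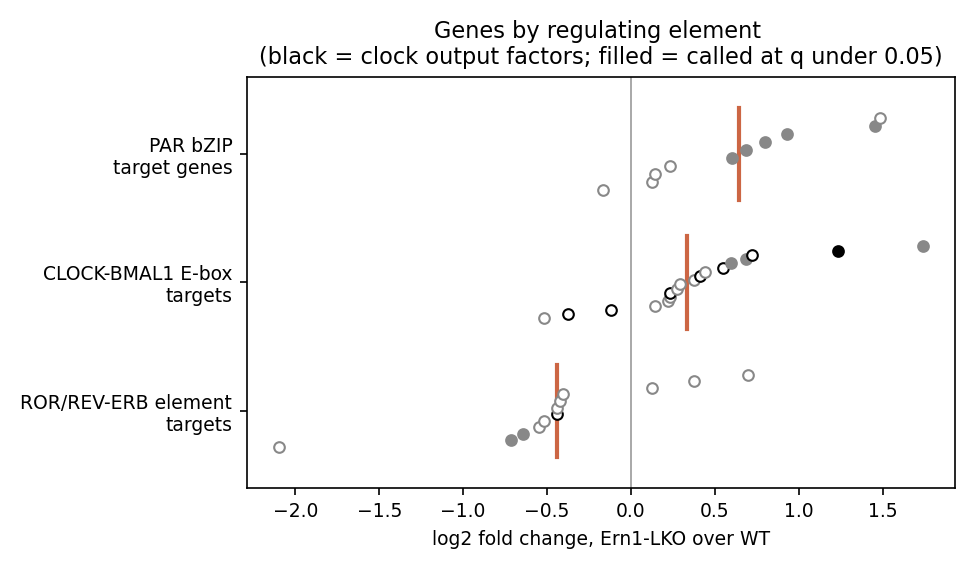
Each point is the log2 fold change of 1 tested gene, in order of size within its list, for PAR bZIP targets, E-box targets and ROR/REV-ERB element targets; black points are clock output factors, filled points are called, and red lines are list medians. Most E-box and PAR bZIP targets lie above 0 (15 of 18 and 9 of 10), and 9 of 12 ROR/REV-ERB element targets lie below it.

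Other measures moved beside Usp2 and the PAR bZIP targets. Of 11 genes known to be induced by glucocorticoids, a hormone with a daily rhythm, 4 rose and none was called lower, against the 1.58% of tested loci called higher. Zbtb16 rose from 3.05 to 13.4 FPKM, Fkbp5 from 6.30 to 18.2, Mt1 from 54.0 to 171 and Mt2 from 18.3 to 51.5. Of the 11 genes 9 stood above WT, against 47.9% of all tested loci, and Sgk1 and Tsc22d3 stood below it. The summed level of the list was 1645 FPKM in WT and 2112 in Ern1-LKO. The uncalled genes Tat (916 and 1135 FPKM, q = 0.728) and Errfi1 (427 and 502 FPKM, q = 0.868) weigh most in that sum. The part of the glucocorticoid-induced genes in the values of the clock output factors was not tested.

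For Ern1 the FPKM was 21.4 in WT and 30.2 in Ern1-LKO (q = 0.172 in the authors' deposited table), and a gene-level FPKM does not check a deletion of part of the gene. The 12 hepatocyte markers were all tested, had no call and summed to 41615 and 40547 FPKM. That sum includes combined loci, Apoa1 with Sik3 (11069 and 10627 FPKM) and Ahsg with Dnajb11 (6599 and 7232 FPKM). Of 9 stellate markers 3 rose, all collagens, against 1.58% of tested loci called higher; the 3 summed to 8.30 and 17.4 FPKM, all 9 stood above WT and summed to 65.3 and 94.0, and none was at 0. The other marker lists had no call among their tested genes. Of 8 Kupffer cell markers 7 stood above WT, and these summed to 107 and 122 FPKM, while the combined locus of Cd68 and Eif4a1 was at 163 and 150. Of 8 endothelial markers 7 stood above WT (the list summed to 98.2 and 106 FPKM), and of 5 bile duct markers 4 (these summed to 3.49 and 4.63), with Spp1 at 37.2 and 30.3. Of 6 tested lymphocyte markers 3 stood above WT (sum over 8 listed genes 5.19 and 6.38 FPKM), and all 4 tested neutrophil markers stood below it (sum 23.5 and 13.5, which includes Mpo, untested and at 0 in Ern1-LKO). In whole liver, fewer cells of a type and less RNA per cell cannot be told apart, and the part of these markers in the results was not tested.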

How the data were processed

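Liver RNA of 4 mice was sequenced. The submitters' processing notes name the mm10 build, Cufflinks 2.2.1, TopHat2 2.0.14, FastQC 0.11.3 and bcl2fastq, without their roles or the annotation. The values the authors deposited are, per the file headers, FPKM, 1 value per genotype and locus, with their log2 fold change, test statistic (a signed score), p-value and q-value. FPKM keep no read depth, so no counting interval was computed, and no test across mice was possible.

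Calls are the authors' at q under 0.05 over 13320 tested loci. The implied SE is the size of the log2 fold change, multiplied by ln 2 and divided by the size of the test statistic (median ratio of its z to that of the deposited p 1.02); it fails at a few loci. SEs were combined as independent. Gene spans are from GENCODE M21 on mm10, and table starts were raised by 1 to be 1-based. The members and the 17 gene lists were chosen with earlier results of these data known; 1 gene of the lists is not reported here. All 9 factors, called list members and, in lists with fewer than 2 calls, abundant ones were named; Clock, Insig2, Sphk2, Rpl18 and other uncalled genes were named after their values were seen. Alternatives were other q thresholds, fold and FPKM filters, pseudocounts and centring, with p-values from a normal approximation. Tools were matplotlib 3.10.9, scipy 1.17.1, pandas 2.3.3, numpy 2.4.6 and Python 3.11.15, and the adjustment steps were tested on simulated data.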

Additional observations from a re-analysis of the deposited data

How the results depend on the processing

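Usp2 was the only clock output factor called under each alternative run on q: a threshold of 0.01, a minimum change of 2-fold, adjustment over loci with an FPKM of at least 1 or at least 5, and a normal approximation with or without centring. At an unadjusted p under 0.05, a setting chosen after seeing the data, the count was 5. The log2 fold changes of the 9 genes kept their direction and their side of the threshold after centring. On the log2(FPKM + 1) scale, where no call was made, they kept their direction, and that of Bhlhe41 was 0.24 in place of 0.55. The median change of 0.22 on that scale was 0.06 among those with an FPKM of at least 5. The log2 difference of the PAR bZIP sum to Nfil3 was 0.32 with Hlf alone, and 0.75 without Dbp, a setting also chosen after seeing the data. At q under 0.01, 1 core clock gene, 2 E-box targets and 3 PAR bZIP targets were called higher, and with an FPKM of at least 5 the core clock count was 1. Over all tested loci and in either direction, 221 were called at q under 0.01, against 365 at q under 0.05. The normal approximation called 457 loci with centring and 461 without it, so it called more loci in general. With p-values from a normal approximation, 4 ROR/REV-ERB element targets were called lower both with centring and, as added after seeing the data, without it: Insig2 and Fgf21 with Elovl3 and Plin2. Of these, Fgf21 was at a low 1.05 FPKM in WT and 0.246 in Ern1-LKO, with q = 0.182 in the authors' deposited table. On the authors' q with an FPKM of at least 5, the 2 called lower were Elovl3 and Plin2. No paired analysis was possible because the table has no value for each mouse, and the replicate block and leave-one-out settings were not run for that reason. With 2 mice per genotype, an unknown hour of collection and no value per mouse, either mouse of a genotype could carry a difference.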

Other observations

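Across the whole table, 86 tested loci carry a D-box, as TTATGTAA or TTACGTAA, in a RefSeq promoter window, and 5.81% of them were called, against 2.65% of 8943 tested loci whose window lacks it. The 5 called loci were Per3, Ces1g, a carboxylesterase (84.2 to 124 FPKM), and Coq10b, a coenzyme Q binding protein (25.3 to 43.7 FPKM), which rose, and Sec61b, a translocon subunit (235 to 92.6 FPKM), and Xlr3a (6.91 to 2.99 FPKM), which fell. They were named after their values were seen. Loci with an E-box were called in 2.55% of 1059 cases, against 2.70% of 7970 without it, and loci with the ROR/REV-ERB element in 1.68% of 238, against 2.71% of 8791 without it. No test was run on these shares, and on the log2(FPKM + 1) scale the median over loci was 0.01 with the D-box and -0.01 without it. Of the genes called on the PAR bZIP target list, only Per3 had a D-box in a matched window. On the E-box list only Ciart of the called genes had an E-box there, and on the ROR/REV-ERB element list only Plin2 had that element. The windows reach only 250 bases before a start.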
